A study of Mus musculus with 38 samples.

Results

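The 9 genes followed here belong to the amyloid precursor pathway and were measured in granule cells of the mouse dentate gyrus (DG). They are the precursor *App* and its relative *Aplp1*, the beta secretase *Bace1*, the gamma secretase genes *Psen2*, *Ncstn*, *Aph1a* and *Psenen*, and the BRI family genes *Itm2b* and *Itm2c*. These 9 of the 23420 counted genes were picked by symbol after earlier results of these data were known. The values that chose them were the differences between dVenus+ and dVenus- cells of a mouse, so for that contrast the 9 genes are described with their fold changes and standard errors (SE) and without p-values. All mice were male *Arc*::dVenus animals on a C57BL/6J background, 8 to 12 weeks old, whose fluorescent reporter, a destabilized protein, is made under the *Arc* promoter. The 12 fear conditioned (FC) mice had heard 3 tones in the chamber that each ended in a foot shock, and the 4 no-shock (NS) mice had gone through the same session with no shock, both 24 h before collection, whereas the 3 home-cage (HC) mice had no training. From each mouse, 1 library was made of the pooled contents of 10 fluorescent (dVenus+) granule cells and 1 of 10 nonfluorescent (dVenus-) neighbors, drawn into a patch pipette with the nucleus, which gave 38 libraries. The reporter marks cells with recent *Arc* promoter activity, whatever raised it, and dVenus- cells are from the same slices.

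Values are CPM, the reads on a gene as a share of all reads on genes in its library, scaled by TMM (trimmed mean of M-values) over all 38 libraries, and are called normalized CPM. The libraries held between 1352288 and 18394761 reads on genes, with a median of 8013005, and the dVenus+ library was the shallower one in 9 of 12 FC, 3 of 4 NS and 2 of 3 HC mice. *Arc* itself served to check the labels. It lay between 477 and 1541 normalized CPM in FC dVenus+ libraries and between 0 and 172 in FC dVenus- libraries, where mice 6, 7 and 14 had 108, 48.2 and 172 and the other 9 had at most 2.14. In NS mice *Arc* ran from 147 to 863 in dVenus+ against 0 to 4.34 in the dVenus- libraries, and in HC mice from 278 to 608 and from 0 to 4.97, so cell types did not overlap in any group. Sample titles and characteristics gave the groups. The description field of 6 NS and HC libraries names the other cell type, which goes against both the titles and *Arc*. It also gives the 2 libraries of each of the 7 NS and HC mice different animal numbers, a conflict over the pairing that *Arc* cannot settle.

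The amyloid precursor protein is a transmembrane protein of neurons that is cut in steps. Alpha or beta secretase first sheds the outer part, and gamma secretase, a membrane complex of presenilin, nicastrin (*Ncstn*), APH-1 (*Aph1a*) and PEN-2 (*Psenen*), then cuts the remaining stub inside the membrane. *Bace1* encodes the beta secretase, whose cut opens the route to amyloid beta. *Itm2b* and *Itm2c* encode BRI2 and BRI3, transmembrane proteins that bind the precursor and hinder its cleavage, and mutations of human *ITM2B* cause familial dementias with amyloid. Granule cells are the principal neurons of the DG.

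Because *Itm2c* and *Itm2b* share a family and both had fitted fold changes below 0 in the 3 groups, and because *Psenen* had the widest difference in HC mice, the sequences just before their start sites are given for comparison. They are the 250 bases upstream of the start in RefSeq's GRCm38.p6 table, 5′ to 3′ on the gene's strand, in which 8 of the 9 genes were found (*Bace1* was not matched). Capitals mark TGACG or its reverse complement CGTCA, the half-site of the cyclic AMP response element (CRE) that CREB family factors bind. *Itm2c* is at chr1:85894260-85894509 (plus strand), *Itm2b* at chr14:73385290-73385539 (minus strand) and *Psenen* at chr7:30563628-30563877 (minus strand).
Itm2c: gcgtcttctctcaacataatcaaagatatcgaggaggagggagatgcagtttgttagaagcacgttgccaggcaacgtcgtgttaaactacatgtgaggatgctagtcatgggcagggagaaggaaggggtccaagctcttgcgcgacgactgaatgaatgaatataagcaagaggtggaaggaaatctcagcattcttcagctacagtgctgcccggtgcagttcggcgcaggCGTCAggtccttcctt
Itm2b: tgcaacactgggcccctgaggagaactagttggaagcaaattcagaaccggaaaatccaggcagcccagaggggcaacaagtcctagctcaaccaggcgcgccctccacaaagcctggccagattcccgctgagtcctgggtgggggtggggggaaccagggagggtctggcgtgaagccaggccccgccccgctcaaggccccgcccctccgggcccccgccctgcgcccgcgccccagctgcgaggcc
Psenen: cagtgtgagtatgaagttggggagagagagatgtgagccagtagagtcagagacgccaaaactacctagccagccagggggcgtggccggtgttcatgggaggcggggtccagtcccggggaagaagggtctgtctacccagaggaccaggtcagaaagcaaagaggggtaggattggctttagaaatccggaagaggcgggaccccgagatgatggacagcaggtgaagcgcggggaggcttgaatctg
The *Itm2c* stretch holds 1 half-site, whose first letter is 16 bases before the start, and the other 2 stretches hold none. A second *Psenen* start in the same table, at position 30563204, has 2 half-sites, 117 and 23 bases upstream. The 8 matched genes have 10 stretches in the table, of which 3 hold a half-site (1 each of *Itm2c*, *Ncstn* and *Psenen*), against 17.8% of all 32851 stretches. The GENCODE start of *Itm2c*, at position 85894281, lies inside the stretch printed here, so that by that annotation most of it, the half-site included, is within the gene. The full palindrome TGACGTCA occurs in none of the 10 and in 1.55% of all stretches. The GC box GGGCGG, read on both strands, occurs in 5 of the 10 and in 32.7% of all stretches, and *Itm2b* has 3 copies of it, at 65, 48 and 32 bases before the start. GC content was 50.8% upstream of *Itm2c* and 68.8% upstream of *Itm2b*. A match describes letters only, and binding was not measured.

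Per kilobase of exon, the 9 genes fell into a high and a low part. The length used joins all exons that GENCODE M21 gives for a gene, 8167 bases for *App* and 2230 for *Itm2c*. The transcripts present in these cells can be shorter, so the order of genes, that of *App* included, depends on this choice. Over all 38 libraries the median was 142 normalized CPM per kb for *Itm2b*, 122 for *Aplp1*, 120 for *Itm2c*, 42.7 for *App* and 37.4 for *Psenen*. *Ncstn* (8.22), *Bace1* (6.93), *Aph1a* (2.84) and *Psen2* (1.63) were lower. The 3 leading genes could not be ordered, since *Itm2b* exceeded *Aplp1* in 19 of 38 libraries and *Aplp1* exceeded *Itm2c* in 18. *Itm2c* lay above *App* in 29 of 38. The order differed between cell types: in dVenus- libraries *Itm2c* came first with a median of 221, and in dVenus+ libraries it came after *Aplp1* and *Itm2b* with 50.2. Some libraries had no read of a gene. *Psen2* had no read in 13 of 38 libraries, *Aph1a* in 6, *Psenen* in 4, *Ncstn* in 2 and *Bace1* in 1, whereas *App*, *Aplp1*, *Itm2b* and *Itm2c* had at least 15 reads in every library. A count of 0 allows up to 3 counts of the library total, a limit that covers counting error only.

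**Figure D1:**
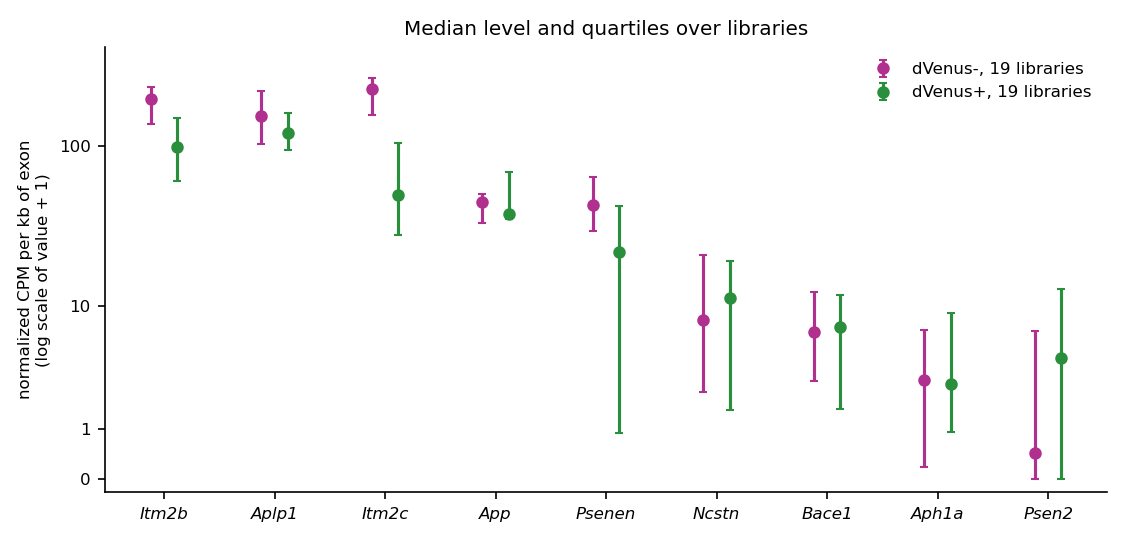
Normalized CPM per kb of exon (log scale of value + 1) for the 9 genes, ordered by their median over all libraries; points are medians of 19 dVenus- and 19 dVenus+ libraries and bars span the quartiles. *Itm2c* is highest in dVenus- libraries (221) and lies below *Itm2b* and *Aplp1* in dVenus+ libraries (50.2).

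*Itm2c* was the member with the widest difference after fear conditioning. In FC mice it ran from 9.46 to 309 normalized CPM in dVenus+ libraries, with a median of 77.9, against 267 to 768 in the dVenus- libraries, with a median of 485. The ranges met only through the highest dVenus+ library (mouse 11) and the lowest dVenus- library (mouse 12), and within a mouse the dVenus+ value was the lower one in 12 of 12. The fit of edgeR with the mouse as a block gave a log2 fold change of -2.61 (SE 0.40), which puts the level in dVenus+ at 0.164 of that in dVenus- cells. The within-mouse difference of log2(CPM + 1) ran from -5.11 in mouse 14 to -0.98 in mouse 13. It was also below -3 in mice 1, 3 and 4. Raw counts behind the dVenus+ values ran from 19 to 4922, and those behind dVenus- from 874 to 13263.

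*Itm2c* was the only one of the 9 genes called in FC mice, where a call needs a Benjamini-Hochberg adjusted p-value under 0.05 and an absolute log2 fold change over 1. Among all 9709 genes tested, 4.35% were called, 2.84% were called with the lower level in dVenus+, and 1.09% were lower in the dVenus+ library of all 12 mice, as *Itm2c* was. Since this contrast served to choose the genes, nothing is read from these counts. *Itm2c* was called in each of the 12 fits that left out 1 mouse, with log2 fold changes from -2.77 to -2.43. FC libraries carry 3 sample ID prefixes, taken here as batches, and the *Itm2c* log2 fold change was -4.36 (SE 0.69) in the batch of 2 mice, -2.48 (SE 0.73) in that of 4 and -2.23 (SE 0.50) in that of 6. It was lower in every mouse of each batch, and none of the 3 batches called it on its own.

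*Itm2c* was also read in the 2 control groups. In HC mice 15, 16 and 17 its dVenus+ values were 188, 64.3 and 196 normalized CPM and its dVenus- values 947, 842 and 328, so that the groups did not overlap. The log2 fold change was -2.40 (SE 0.96), and it ran from -3.26 to -1.69 over fits that left out 1 mouse. Of all genes tested in HC, 5.92% had dVenus+ libraries that all lay under the dVenus- libraries. In NS mice 18, 19, 20 and 21 the dVenus+ values were 267, 223, 227 and 335 and the dVenus- values 158, 571, 202 and 537. Here 2 mice were lower and 2 higher in dVenus+, the groups overlapped, and the log2 fold change was -0.29 (SE 0.75), which turned to 0.16 without mouse 19. With the cell type from the description labels the values were 0.29 in HC and -0.84 in NS mice.

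*Itm2b*, the gene of BRI2, had fitted fold changes below 0 in the 3 groups, smaller than those of *Itm2c* in FC and HC mice and larger in NS mice. In FC mice it ran from 12.5 to 403 normalized CPM in dVenus+ (median 202) against 85.7 to 848 in the dVenus- libraries (median 411). The ranges overlapped widely, 11 of 12 mice were lower in dVenus+ and mouse 12 was higher, and the log2 fold change was -1.01 (SE 0.37). Mice 5 and 14, whose dVenus+ libraries held 27 and 42 *Itm2b* reads, had differences of -3.21 and -5.00, and the other 10 lay between -1.07 and 0.53. In NS mice 18 to 21 the dVenus+ values were 113, 194, 372 and 455 and the dVenus- values 462, 399, 495 and 589. All 4 mice were lower in dVenus+, a pattern that 7.66% of the genes tested in NS had, and the log2 fold change was -0.96 (SE 0.71). The NS value was -0.21 with the cell type from the description labels. In HC mice 15 to 17 the values were 237, 336 and 252 in dVenus+ against 641, 301 and 694 in dVenus- libraries. Mouse 16 went the other way, and the log2 fold change was -1.08 (SE 0.86).

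**Figure D2:**
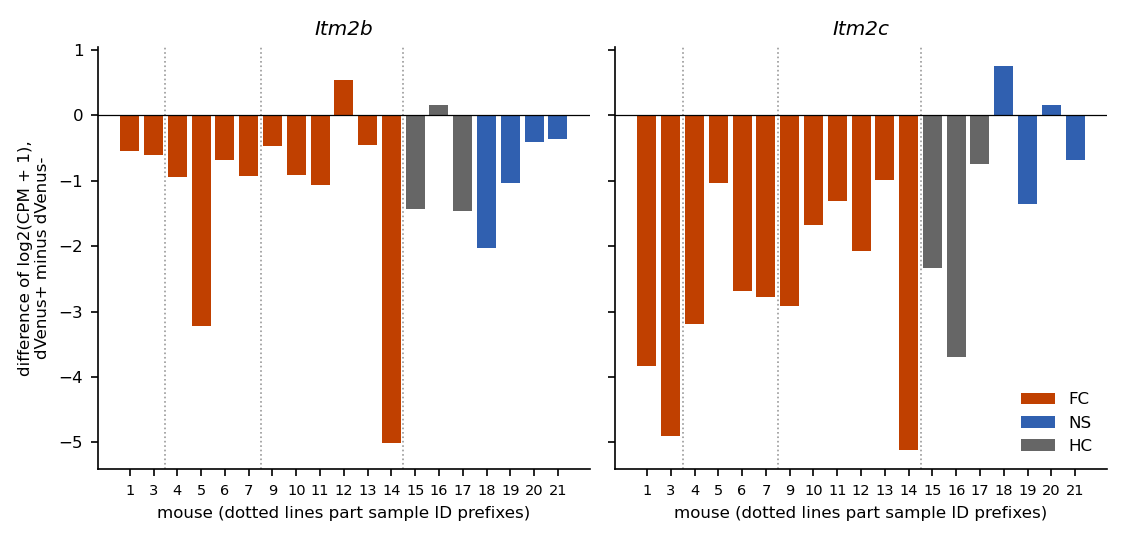
Difference of log2(normalized CPM + 1) between both libraries of each mouse (dVenus+ minus dVenus-) (bars; 12 FC, 4 NS and 3 HC mice) for *Itm2b* and *Itm2c*, with dotted lines between sample ID prefixes. *Itm2c* is below 0 in all 12 FC mice, from -5.11 to -0.98, and in all 3 HC mice, and on both sides of 0 in NS mice.

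Between the 2 BRI genes, Spearman's rho of the within-mouse differences over the 12 FC mice was 0.11, while their levels had a rho of 0.57 in dVenus+ and 0.79 in dVenus- libraries. The difference of *Itm2c* had a rho of 0.69 with that of *Psenen* and of -0.70 with that of *Aph1a*, genes with no read in some FC libraries. Other pairs of members went as far, with 0.713 for *App* and *Bace1* and 0.706 for *Bace1* and *Ncstn*. These are descriptions of 12 mice whose libraries share depth and normalization.

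Other RNAs moved with the cell type as well. The summed level of 8 granule cell markers ran from 371 to 2560 normalized CPM in FC dVenus+ against 1568 to 4071 in the FC dVenus- libraries, and was lower in dVenus+ in 11 of 12 FC, 4 of 4 NS and 3 of 3 HC mice. *C1ql2*, *Stxbp6*, *Calb1* and *Camk2a* were called lower in FC. Nuclear-retained RNAs (6 genes, *Malat1* among them) summed to between 19416 and 78515 in FC dVenus+ and between 4323 and 44045 in FC dVenus- libraries, and were higher in dVenus+ in 12 of 12, 4 of 4 and 3 of 3 mice. In FC mice *Malat1* and *Snhg11* were called higher and *Miat* was called lower. Microglial markers (12 genes) summed to between 36.1 and 2156 in FC dVenus+ and between 1.28 and 785 in dVenus- libraries, were higher in dVenus+ in 12 of 12 FC mice, and had 5 of 9 tested genes called (*Csf1r*, *C1qa*, *C1qc*, *Aif1* and *Tyrobp*). In NS mice the microglial sum was higher in dVenus+ in 4 of 4 mice and in HC in 2 of 3. Astrocyte markers (7 genes) summed to between 41.9 and 1554 in FC dVenus+ and between 115 and 2032 in FC dVenus- libraries, and oligodendrocyte markers (6 genes) to between 137 and 2981 and between 203 and 4365, with 0 of 4 tested genes called by edgeR in each list. The astrocyte sum was lower in dVenus+ in 9 of 12 FC mice, and higher in 3 of 3 HC mice, where it ran from 1278 to 1415 in dVenus+ against 227 to 485 in dVenus- libraries with no overlap. In NS mice it was lower in 2 of 4. Of 6 interneuron markers, *Gad1* was called lower, with sums of 17.0 to 405 in dVenus+ and 31.0 to 2607 in dVenus- libraries. Endothelial markers stayed at or under 4.64 in every FC library, with *Pecam1* at 0 in all, and 2 markers of oligodendrocyte precursors ran from 0 to 23.4 in dVenus+ against 0 to 83.0 in the dVenus- libraries. The part of these differences in the values of *Itm2c*, *Itm2b* and the other members was not tested. In libraries of 10 pooled cells, fewer cells with a transcript and less of it per cell cannot be told apart.

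*App* had a fitted fold change near 0 in FC mice. In FC mice it ran from 167 to 495 normalized CPM in dVenus+ (median 300.3) against 145 to 561 in the dVenus- libraries (median 363). The groups overlapped, 7 of 12 mice were lower in dVenus+, and the log2 fold change of -0.03 had the smallest SE of the 9 genes, 0.28. The batches went different ways, with a log2 fold change of 0.58 and 0 of 2 mice lower in the first, 0.11 and 2 of 4 lower in the next, and -0.41 and 5 of 6 lower in the last. In NS mice 18 to 21 *App* had 641, 915, 170 and 315 in dVenus+ against 277, 505, 416 and 222 in dVenus- libraries, with a log2 fold change of 0.35 (SE 0.71). Mice 18 and 20 differed in opposite directions. The NS value of *App* turned to -0.29 with the cell type from the description labels. In HC mice 15 to 17 it had 766, 666 and 814 against 590, 723 and 273, with a log2 fold change of 0.46 (SE 0.77).

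*Aplp1* encodes a relative of the precursor protein that lacks the amyloid beta stretch. In FC mice it ran from 8.45 to 887 normalized CPM in dVenus+ (median 313) against 226 to 1027 in the dVenus- libraries (median 372). Mouse 5 had the lowest dVenus+ value, from 15 reads, and 8 of 12 mice were lower in dVenus+, with a log2 fold change of -0.56 (SE 0.34). In NS mice it had 201, 482, 243 and 288 in dVenus+ against 75.2, 470, 192 and 249 in dVenus- libraries, and the log2 fold change was 0.48 (SE 0.76). In HC mice it was -0.65 (SE 0.95), with values of 132, 62.9 and 353 against 249, 60.9 and 533.

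*Bace1* varied over a wide range between libraries of 1 kind. In FC mice it lay between 0.597 and 255 normalized CPM in dVenus+ (median 44.6) and between 0.497 and 127 in dVenus- libraries (median 43.0), and 7 of 12 mice were lower in dVenus+. The log2 fold change was 0.03 (SE 0.67) in FC mice, 0.77 (SE 1.33) in NS mice and -0.75 (SE 1.95) in HC mice. The NS value ran from 0.14 to 1.82 over fits that left out 1 mouse and came to 2.93 with the cell type from the description labels. The HC value turned to 0.72 without mouse 17, to 0.33 with DESeq2's Wald test and to 0.37 with the older quasi-likelihood method of edgeR. Within each group the dVenus+ and dVenus- libraries overlapped, and by batch 0 of 2, 2 of 4 and 5 of 6 FC mice were lower in dVenus+.

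Among the gamma secretase genes, *Psenen* stood out in HC mice. Mice 15, 16 and 17 had 3, 0 and 5 *Psenen* reads in their dVenus+ libraries, which are 0.824, 0 and 0.664 normalized CPM, and 415, 343 and 484 reads in their dVenus- libraries, which are 30.8, 69.2 and 47.1 normalized CPM. The groups did not overlap and were far apart, with a fitted log2 fold change of -6.38 (SE 2.38) that rests on 8 reads on the low side and therefore depends on the prior count of the fit. Of all genes tested in HC, 5.92% had dVenus+ libraries that all lay under the dVenus- libraries. With the cell type from the description labels the HC value was -1.50. In NS mice the pattern was mixed. The dVenus+ values of mice 18 to 21 were 40.3, 27.7, 0.202 and 51.7 and the dVenus- values 0, 50.8, 102 and 55.0 normalized CPM, so that 1 library of each kind had next to no *Psenen* read, and the log2 fold change was -0.46 (SE 1.68). In FC mice *Psenen* ran from 0 to 48.4 in dVenus+ (median 23.2) against 0 to 69.8 in the dVenus- libraries (median 30.8), 9 of 12 mice were lower in dVenus+, and the log2 fold change was -0.73 (SE 0.73).

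*Psen2*, the catalytic presenilin of the list, was detected in few dVenus- libraries of the controls. In NS mice 18 to 21 it had 22.0, 36.7, 13.1 and 38.8 normalized CPM in dVenus+ and 0, 32.9, 0 and 0 in dVenus- libraries, with a log2 fold change of 3.94 (SE 1.95). The ranges overlapped through mouse 19. The fitted size came to 10.69 without that mouse, 9.06 with DESeq2's Wald test and 8.61 with the older quasi-likelihood method, and turned to -2.01 with the description labels. In HC mice the values were 9.89, 1.40 and 23.8 in dVenus+ and 0, 1.01 and 0 in dVenus- libraries, from counts of 36, 3 and 179 against 0, 5 and 0. The gene did not pass the count filter there and has no fitted value. In FC mice *Psen2* had no read in 6 of 12 dVenus+ and 2 of 12 dVenus- libraries, ran up to 154 and 44.9, and had a log2 fold change of 0.14 (SE 1.22).

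*Ncstn* and *Aph1a* had no common direction. *Ncstn*, which encodes the substrate-binding subunit, ran from 0.298 to 104 normalized CPM in FC dVenus+ (median 46.9) against 0.0829 to 75.3 in the FC dVenus- libraries (median 19.7), and was higher in dVenus+ in 9 of 12 mice, with a log2 fold change of 0.94 (SE 0.87). It was -1.58 (SE 1.40) in NS and -2.25 (SE 2.80) in HC mice, where it was -5.39 without mouse 15 and 0.45 without mouse 17. *Aph1a*, which encodes a scaffold subunit, ran from 0 to 159 in FC dVenus+ (median 8.50) against 0 to 43.3 in the FC dVenus- libraries (median 11.3), with a log2 fold change of 0.50 (SE 0.89). It was -0.80 (SE 1.96) in NS and 1.70 (SE 2.49) in HC mice, and turned to 0.75 in NS without mouse 19 and to -0.48 in HC without mouse 15. In each of these comparisons the groups overlapped.

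**Figure D3:**
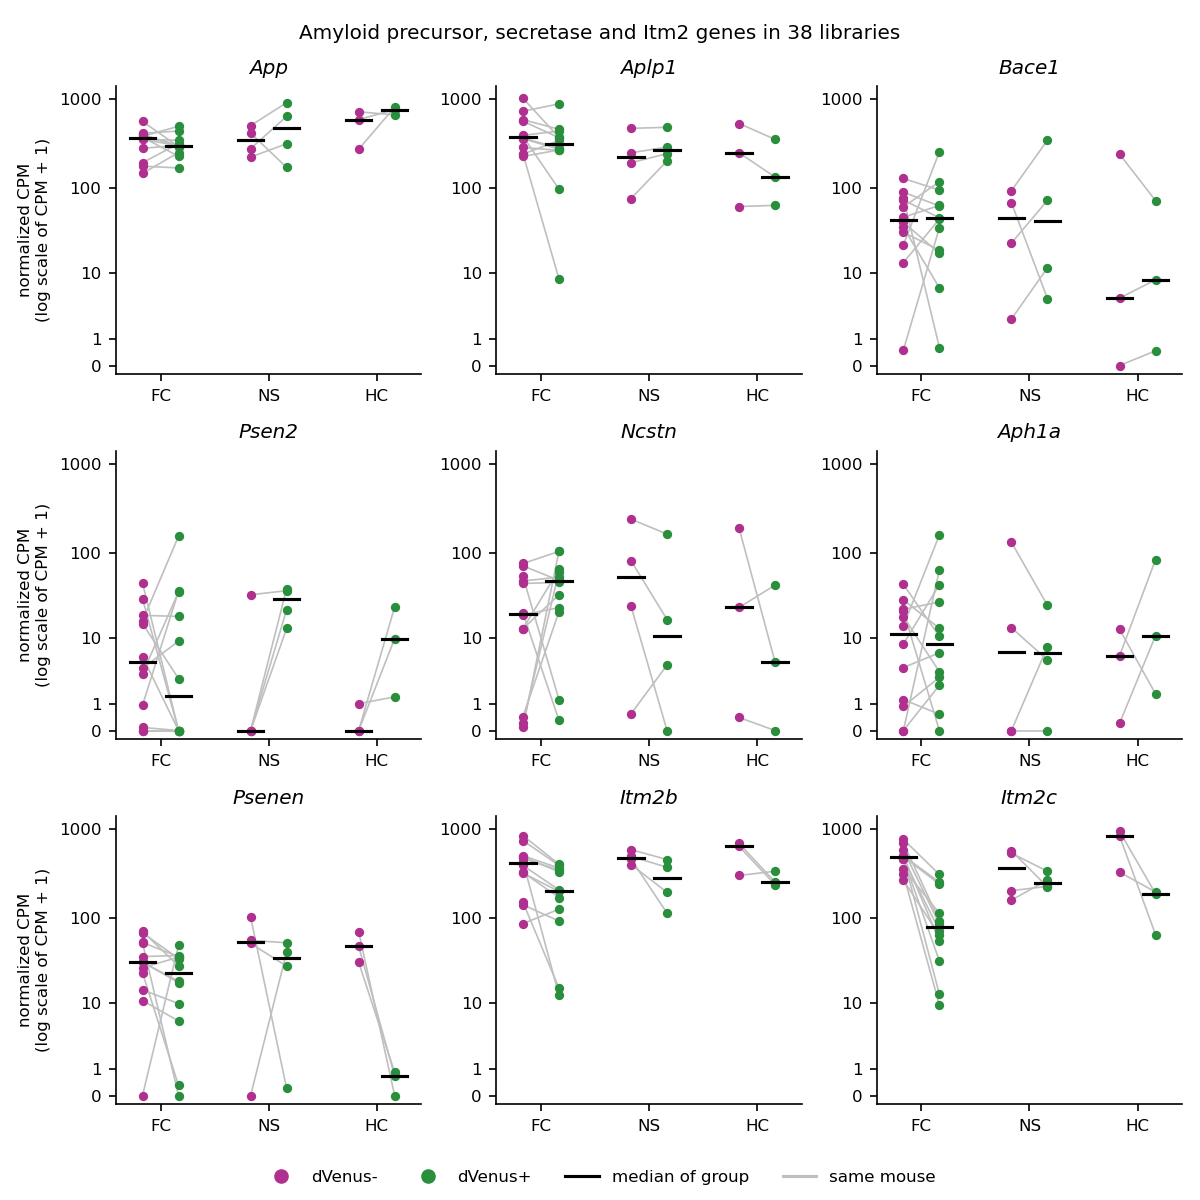
Normalized CPM (log scale of CPM + 1) of the 9 genes in each of 38 libraries; points are libraries, grey lines join the paired libraries of a mouse and black bars are group medians. *Itm2c* falls along every FC line, *Psenen* is at or under 0.824 in all 3 HC dVenus+ libraries, and *App* stays between 145 and 915 throughout.

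Counted over the list, 5 of 9 members lay below 0 in FC mice, 5 of 9 in NS mice and 6 of 8 in HC mice, with median log2 fold changes of -0.03, -0.29 and -0.91. Over all genes tested, 54.1% lay below 0 in FC mice, 48.0% in NS mice and 49.6% in HC mice, with medians of -0.11, 0.08 and 0.02. In NS mice edgeR called 0 of 9 members and 0.0489% of 8187 genes (710 at an unadjusted p under 0.05), and in HC mice 0 of 8 members and 0% of 7588 genes (532 at an unadjusted p under 0.05). DESeq2's Wald test, run as an alternative, called 1 member in each group, *Itm2c* after FC (1635 of 9709 genes called), *Psen2* in NS mice (666 of 8187) and *Psenen* in HC mice (625 of 7588). Nothing is read from these calls either.

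**Figure D4:**
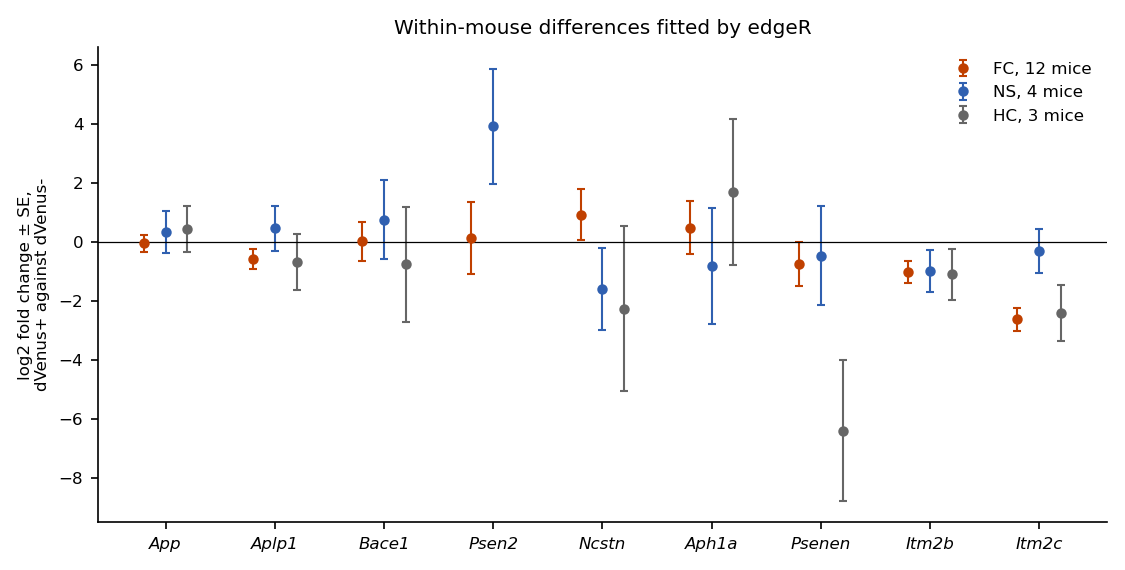
Log2 fold change of dVenus+ against dVenus- cells (points) with its SE (bars), fitted by edgeR in FC (12 mice), NS (4) and HC mice (3); *Psen2* has no fitted value in HC. *Itm2c* has -2.61 in FC and -2.40 in HC against -0.29 in NS, and the SE of the gamma secretase genes reaches 2.80 in HC.

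Whether the cell-type difference itself differed between training groups was fitted in 1 model of all 38 libraries. Neither interaction called any gene of 14075 (0%), with 1152 genes at an unadjusted p under 0.05 for FC against NS and 1304 for FC against HC. For *Itm2c* the FC difference minus the NS difference was -2.36 (SE 0.77) and minus the HC difference -0.39 (SE 0.87). For *Psenen* the same values were -0.28 (SE 1.73) and 5.50 (SE 2.39), and for *Psen2* -4.24 (SE 2.37) and -5.71 (SE 3.22). The sizes for *Psen2* rest on dVenus- libraries with no read and ran from -9.51 to -4.07 and from -8.21 to -5.42 under the alternatives. DESeq2's Wald test called *Itm2c* and *Psen2* for FC against NS (1192 of 14075 genes called), and *Psen2* and *Psenen* for FC against HC (1583). These interactions are built from the contrast that chose the members, and nothing is read from the calls. All FC mice have other sample ID prefixes than the NS and HC mice, so that training and batch cannot be told apart in these differences.

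NS and HC libraries share a prefix, and their levels were compared within each cell type to ask whether context exposure without shock moved these genes. The comparison uses the same libraries as the contrast that chose the genes, so the members' values are given as a description, without p-values. No gene was called by edgeR in dVenus+ (0% of 8706, with 773 at an unadjusted p under 0.05) or dVenus- cells (0% of 8547, with 756). Of the 9 members tested in dVenus+ cells 7 lay above 0 and 2 below, and of the 8 tested in dVenus- cells 3 lay above and 5 below. Over all genes tested, 48.1% lay below 0 in dVenus+ and 46.7% in dVenus- cells. *Psenen* had the largest log2 fold change of NS against HC, 5.60 (SE 2.00), which came to 0.58 with the cell type taken from the description labels, with 3 of 4 NS libraries above all 3 HC libraries and mouse 20 within their range. In dVenus- cells *Psenen* had a log2 fold change of 0.15 (SE 1.40). *Itm2c* had 0.80 (SE 0.77) in dVenus+ and -0.93 (SE 0.65) in dVenus- cells. *App* had -0.60 (SE 0.63) and -0.57 (SE 0.68).

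The other genes of the pathway were taken from a list of 48, of which 43 were tested in FC mice and 1 was called, against the 4.35% called over all genes. *Ctsd*, which encodes the lysosomal protease cathepsin D, ran from 32.8 to 1082 normalized CPM in FC dVenus+ (median 297) against 23.9 to 367 in the FC dVenus- libraries (median 108). The ranges overlapped, 10 of 12 mice were higher in dVenus+, and the log2 fold change was 1.67 (SE 0.45, adjusted p = 0.0325 by edgeR). The call was lost when any 1 of mice 3, 6, 7, 9, 12, 13 or 14 was left out. Microglia are rich in cathepsin D, and the microglial sum given above was higher in dVenus+ in 12 of 12 mice, whereas *Ctsd* was lower there in mice 4 and 10. The part of one in the other was not tested. *Clu*, the gene of the secreted chaperone clusterin, had a log2 fold change of -1.50 (SE 0.59, adjusted p = 0.153 by edgeR), with medians of 27.8 against 81.5 and 9 of 12 mice lower in dVenus+. *Sorl1*, the gene of a sorting receptor for the precursor protein, had -1.48 (SE 0.54, adjusted p = 0.123 by edgeR), with medians of 41.8 against 88.8 and 10 of 12 mice lower. The list was drawn up with earlier results of these data known, and *Ctsd*, *Clu* and *Sorl1* are named for their values in this contrast. Their adjusted p-values are therefore a description and no independent test.

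By role, in FC mice, the 3 alpha secretases, the 6 tested genes of gamma secretase and its modulators, the 9 adaptors of the precursor's tail, the 9 other substrates, the 7 sorting genes and *Bace1* regulators and the precursor relative *Aplp2* had no call by edgeR, and degradation and clearance had 1 in 8. DESeq2's Wald test called *Chl1* among the other substrates, *Sorl1* among the sorting genes, and *Clu* and *Ctsd*. The median log2 fold change over the 43 genes was 0.05, and 9 of them, *Ctsd* included, had an unadjusted p under 0.05, as had 1724 of all 9709 genes. The lowest median of a role was that of the other substrates of the secretases, -0.87, with 6 of 9 below 0. In NS mice 0 of 36 and in HC mice 0 of 36 genes were called by edgeR, with 1 and 2 at an unadjusted p under 0.05. NS against HC gave 0 of 39 in each cell type, with 3 and 2.

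The genes lie on GRCm38 (GENCODE M21) at chr16:84949685-85173766 for *App*, chr7:30434982-30445535 for *Aplp1*, chr9:45838580-45864399 for *Bace1*, chr1:180227004-180263438 for *Psen2*, chr1:172066013-172082795 for *Ncstn*, chr3:95893969-95898288 for *Aph1a*, chr7:30561863-30563627 for *Psenen*, chr14:73362226-73385289 for *Itm2b* and chr1:85894281-85908675 for *Itm2c*. The RefSeq spans of *Bace1* and *Rnf214*, *Ncstn* and *Copa*, *Aph1a* and *Car14*, *Psenen* and *U2af1l4*, and *App* and *Gm10791* overlap, and that of *Psen2* overlaps *Gm31728*, a gene with no row in the count files. Reads that fit both counted genes of a pair were left out of the counts, and the library kit does not mark the strand, so that values of these members are uncertain where the 2 genes share exons. *Aplp1*, *Itm2b* and *Itm2c* share no span with another gene.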

How the data were processed

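RNA had been amplified from 10-cell pools and sequenced as single reads of 50 bases. The authors aligned the reads to mm10 with TopHat2 2.0.13 and counted uniquely aligned reads on NCBI transcripts with HTSeq 0.6.0, and the deposited values are raw counts per gene and library. The 5 entries that name no gene were left out, of which reads outside genes made up 16.4% to 59.7% and ambiguous reads at most 1.58% of a library. A further deposited table, with the same counts for part of the genes, was not used.

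edgeR 4.0.16 in R 4.3.3 was run with TMM, the newer quasi-likelihood method (glmQLFit with legacy = FALSE) and the mouse as a block, in a separate fit for each group, over genes that reached 10 counts in 12 (FC), 4 (NS) or 3 libraries (HC and the other fits) or more. Tests are two-sided, with p-values adjusted after Benjamini-Hochberg over all genes tested. The SE of an edgeR log2 fold change was computed as its absolute value divided by the square root of the F statistic of its test. It thus holds the same information as that test, and for the members it is a description only. The blocks come from the animal: deviations of a mouse's 2 libraries from the group means had a median correlation of 0.0361 in FC mice, -0.0121 in NS mice and 0.0204 in HC mice. No 2 libraries held equal counts.

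The members and lists were chosen with earlier results of these data known. All 9 members are named, with *Arc*, and of the pathway list those called and the 3 with the largest change among those with an unadjusted p under 0.05 in FC. *Gsap* was counted under its older symbol *Pion*. Marker lists were those of granule cells, microglia, astrocytes, oligodendrocytes and their precursors, endothelium and interneurons, and nuclear-retained RNAs. Alternatives were DESeq2 1.42.0 size factors and Wald test, other filters, the older quasi-likelihood method, no block, single batches, the description labels and leaving out mice. Of the pathway list, 1 gene is not reported here by name.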

Additional observations from a re-analysis of the deposited data

Results flagged for a closer look

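In groups of 4 libraries, 3 of the 18 checked sets of values of the 9 genes had 1 library far from the others by Dixon's test. The test was run on untransformed normalized CPM. Its rate of about 1 group in 20 by chance holds for normally distributed values, which those of genes with libraries at 0 are not. The count is therefore not read as an excess. *Psen2* had 32.9 normalized CPM in the NS dVenus- library of mouse 19, while the other 3 libraries of that group had no read. *Aph1a* was also highest in that library, with 131 normalized CPM against at most 13.4 in the other 3. *Ncstn* had 163 normalized CPM in the NS dVenus+ library of mouse 18 and at most 16.8 in the other 3. Without mouse 19 the NS log2 fold change of *Psen2* was 10.69, and its size then depends on the prior count, since the remaining dVenus- libraries are at 0.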

How the results depend on the processing

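*Itm2c* was called in FC mice in each fit that left out 1 mouse, under both other count filters, with DESeq2's size factors and Wald test, with the older quasi-likelihood method and without the 2 pairs of mice named below, whereas 0 members were called within the batches of 2, 4 and 6 mice, which hold fewer mice. Over all genes these batches gave 0, 12 and 15 calls, against 422 with all mice, 137 with the older method (chosen after the data were seen), 1635 with DESeq2's Wald test and 277 without mice 3 and 5. The call of *Ctsd* was lost (0 pathway genes) with no count filter, with 10 counts in 2 libraries, with the older method, within each batch, without mice 3 and 5 and without mice 5 and 14 (chosen after the data were seen), and its count ran from 0 to 1 over fits that left out 1 mouse; the cause was not tested. DESeq2's Wald test called 4 pathway genes in FC (*Chl1*, *Clu*, *Ctsd* and *Sorl1*), 1 member and 2 pathway genes in each of NS and HC, 1 member for NS against HC in dVenus+ cells, and 2 members for each interaction. Its calls over all genes were 666 in NS and 625 in HC, against 4 and 0 by edgeR, and it called 110 and 144 genes for NS against HC in dVenus+ and dVenus- cells and 1192 and 1583 for the interactions of FC with NS and HC, against 0 by edgeR.

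With the cell type taken from the description labels, *Itm2c* turned to -0.97 for NS against HC in dVenus+ cells, and its HC value to 0.29. The same labels moved *Psen2* to -2.01, *Aplp1* to -1.04, *Ncstn* to 1.61, *App* to -0.29 and *Itm2b* to -0.21 in NS mice. They moved *Bace1* to 0.88 and *Psenen* to -1.50 in HC mice, and *Psenen* to 0.58 for NS against HC in dVenus+ cells. *Psenen* for NS against HC in dVenus- cells turned to -0.078 with DESeq2's size factors and to -0.11 with its Wald test, and ran from -0.62 to 0.55 over fits that left out 1 mouse. In dVenus+ cells 3 of the 7 such fits could not be made for *Psenen*, which fell under the count filter. Without the mouse as a block, so with the pairing left out, 1 member was called in FC mice and 0 in NS or HC mice. Calls over all genes were then 487, 13 and 0, and *Itm2c* was at -2.11 in FC. Over fits that left out 1 mouse the sign also turned for *App* (-0.11 to 0.05), *Bace1* (-0.29 to 0.32) and *Psen2* (-0.53 to 0.82) in FC, for *Itm2c* (-0.62 to 0.16) and *Psenen* (-1.69 to 0.69) in NS, and for *App* (-0.12 to 0.83) in HC mice. The low genes rest on few reads: *Psen2* had under 10 reads in 16 of 38 libraries and *Aph1a* in 10.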
